A study of Mus musculus with 18 samples.

Results

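A set of 10 genes that govern the passage of cells out of the G1 phase of the cell cycle was followed in 6 sorted mouse cell populations. They were the D-type cyclins *Ccnd1*, *Ccnd2* and *Ccnd3*, their kinases *Cdk4* and *Cdk6*, the kinase inhibitors *Cdkn1b*, *Cdkn1c* and *Cdkn2b*, the pocket protein gene *Rb1* and the transcription factor gene *Myc*. Their symbols were matched to the Entrez identifiers of the count files, so that the list comprised 10 of the 27179 genes counted, and all 10 passed the filter on low counts. RNA-seq had been performed on untreated C57BL/6 mice, which by the methods were young adult males. Tracheas of mice 1 to 3 gave NGFR-positive basal cells, referred to as BSCs, and NGFR-negative non-basal cells. Lungs of mice 4 to 6 gave airway cells with high CD24 (EpCAM-positive, CD104-positive, labelled as enriched in ciliated cells), airway cells with low CD24 (the same gate otherwise, labelled as enriched in club cells), alveolar cells (EpCAM-positive, CD104-low) and EpCAM-negative non-epithelial cells. Each population was represented by 3 libraries, 1 per mouse, giving 18 in all. BSCs and alveolar cells thus came from different organs and different animals, and for the staining procedures given in the methods the tracheal cells were released with dispase and trypsin and the lung cells with collagenase, so that cell type, organ, animal and digestion cannot be told apart between trachea and lung.

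D-type cyclins bind CDK4 or CDK6 when mitogens reach a cell, and the active kinases phosphorylate RB1, which then releases E2F transcription factors to switch on the genes of S phase. The product of *Cdkn2b*, p15, competes with the cyclins for CDK4 and CDK6, whereas those of *Cdkn1b* and *Cdkn1c*, p27 and p57, bind cyclin-kinase complexes and hold cells in a quiescent or differentiated state. MYC drives ribosome production and growth and is among the first genes induced when quiescent cells are stimulated. In the airway, basal cells are the stem cells that replace club and ciliated cells, ciliated cells are postmitotic, and type 2 cells maintain the alveoli.

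Counted reads ranged from 29317215 to 32993621 in the 6 tracheal libraries and from 9811503 to 13208897 in the 12 lung libraries, and the members were covered by 15 to 13690 reads per library, the lowest value being that of *Cdk6* in an alveolar library. Levels are given as RPKM, that is, read counts divided by the deposited gene length and by the TMM-scaled size of the library. The basal, ciliated and type 2 markers followed the labels, whereas some other markers did not. The 4 basal markers summed to between 1717 and 1801 RPKM in BSCs and between 122 and 157 RPKM in non-basal cells, the 4 ciliated markers to between 3968 and 4843 RPKM in CD24hi cells and between 311 and 758 RPKM in CD24lo cells, and the 4 type 2 markers to at least 154190 RPKM in alveolar cells. Of the fibroblast transcripts, *Col1a1*, *Col3a1* and *Pdgfra* lay at or near 0 in BSCs, but *Dcn* was at 160, 163 and 159 RPKM there, against 30.1, 26.7 and 38.8 RPKM in non-basal and 21.1, 20.2 and 16.0 RPKM in alveolar cells, and at least 2710 RPKM in EpCAM-negative cells. The part of such transcripts in the BSC results was not tested. *Epcam* in EpCAM-negative cells was at 1.57 to 1.77% of its alveolar mean. The 3 club markers summed to at least 490210 RPKM in CD24lo cells, but also to 72535 to 95286 RPKM in CD24hi cells. They summed to 82843 to 92023 RPKM in non-basal cells and 9593 to 11601 RPKM in BSCs. Of the 3, *Cyp2f2* was highest in non-basal cells (13507 to 15264 RPKM, CD24lo 9815 to 13091 RPKM). In BSCs *Cyp2f2* was at 6803 to 7570 RPKM, above the 2572 to 3452 RPKM of CD24hi cells. The part of club transcripts in the BSC results was not tested either. Of the type 1 markers, *Hopx* was highest in CD24hi cells (141 to 173 RPKM, alveolar 33.7 to 48.7 RPKM) and *Aqp5* in non-basal cells (493 to 591 RPKM, alveolar 339 to 365 RPKM). Endothelial markers summed to 82.1 to 165 RPKM in CD24lo and 84.6 to 133 RPKM in EpCAM-negative cells. The first CD24hi library stood apart from the other two: its median absolute log2 difference from them over all tested genes was 0.366, against 0.0893 to 0.276 in the other 17 libraries, and its endothelial markers were higher, with *Pecam1* at 52.9 RPKM against 24.9 and 13.3 RPKM. The first CD24lo library carried more ciliated transcripts than the other two, with *Foxj1* at 108 RPKM against 51.5 and 52.6 RPKM, and more endothelial ones, with *Pecam1* at 72.7 RPKM against 25.2 and 23.7 RPKM. Where leaving out one of these libraries changed a call of a member or moved its difference by much, the value without it is given.

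Differences between populations were tested by edgeR's quasi-likelihood method. The 18 libraries entered a common fit, p-values were adjusted over the 17989 genes tested (Benjamini-Hochberg), and a gene was called at an adjusted p-value under 0.05. Populations differed in a large share of all genes, against which the members have to be read. Between BSCs and non-basal cells, 48.2% of all tested genes were called, and of the members 3 were higher and 3 lower in BSCs. BSCs and alveolar cells differed in 66.1% of all tested genes, with 5 members higher and 4 lower in BSCs. For CD24hi against CD24lo airway cells, where 55% of all tested genes were called, 5 members were higher and 3 lower. CD24hi and alveolar cells differed in 61.9% of all tested genes, with 5 members higher and 2 lower in CD24hi cells, and CD24lo and alveolar cells in 48.4%, with 5 members higher and 1 lower in CD24lo cells. The EpCAM-negative cells, set against the mean of the 3 lung epithelial populations, differed in 69% of all tested genes and in 9 members, of which 5 were higher and 4 lower. When libraries were scaled by their size alone, the median of all genes shifted upwards. The shift was 0.33 and 0.38 (log2) in the comparisons of BSCs with non-basal and alveolar cells. It was 0.28 and 0.30 in those of CD24hi with CD24lo and alveolar cells. The members then split into 7 higher and 1 lower, 6 and 2, 6 and 3, and 7 and 2, respectively. Of all genes called, 72.2, 64.5, 68.4 and 65.4% were then higher, against 45.5, 46.1, 50.5 and 49.2% with TMM scaling. The 23 called differences of over 1 log2 unit kept their direction and their call under all alternatives run.

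**Figure D1:**
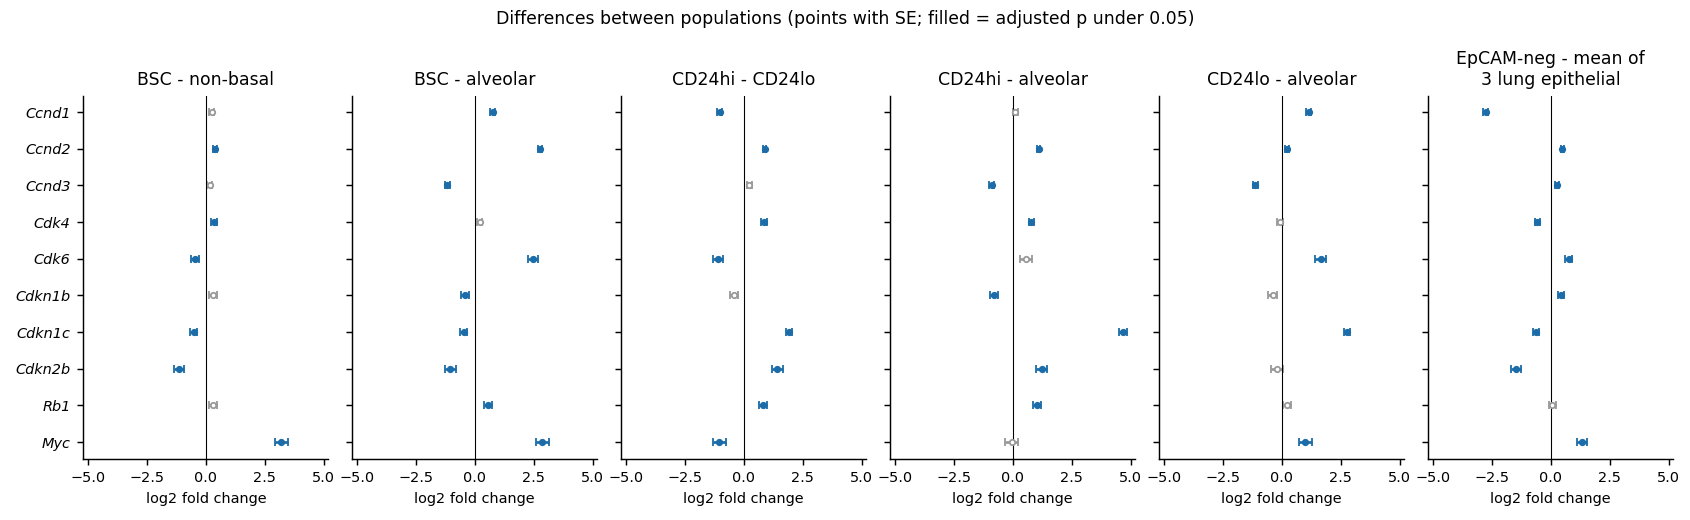
Log2 fold change (x axis) of each of the 10 genes (y axis) in the 6 comparisons, first population minus second, as points with their standard error; filled points have an adjusted p-value under 0.05 (edgeR) and open points do not. *Myc* stood at 3.20 and 2.86 in the comparisons of BSCs, *Cdkn1c* at 4.67 between CD24hi and alveolar cells and *Ccnd1* at -2.76 in EpCAM-negative cells.

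Each of the D-type cyclins had its highest level in a different population. *Ccnd1*, the cyclin most widely induced by growth factors, was highest in CD24lo airway cells, *Ccnd2* in BSCs and *Ccnd3* in alveolar cells. *Ccnd1* measured 88.4, 123 and 114 RPKM in CD24lo cells, 80.8, 86.8 and 81.2 RPKM in BSCs, 73.9, 70.1 and 66.4 RPKM in non-basal tracheal cells, 53.9, 55.7 and 50.0 RPKM in CD24hi cells, 52.8, 45.3 and 49.5 RPKM in alveolar cells and 9.73, 10.1 and 9.27 RPKM in EpCAM-negative cells. In this order only CD24hi and alveolar cells overlapped, and the highest mean was 11.2 times the lowest. Both sides of that range lay in the lung. EpCAM-negative cells were 6.77-fold below the mean of the lung epithelial populations (log2 fold change -2.76 ± 0.11 (SE), edgeR adjusted p = 1.10e-13). The level there was 18.8 to 20.6% of the alveolar mean, whereas that of *Epcam* was 1.57 to 1.77%. CD24lo cells exceeded alveolar cells 2.20-fold (1.14 ± 0.11 (SE), adjusted p = 9.55e-08, edgeR) and CD24hi cells 2.04-fold, whereas CD24hi and alveolar cells were not distinguished (0.11 ± 0.11 (SE), adjusted p = 0.376, edgeR). In bulk samples of this kind, fewer cells of a type and less RNA per cell cannot be told apart.

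*Ccnd2* encodes the D-type cyclin known for its part in the growth of gonads and B cells. It was highest in the trachea: BSCs had 60.0, 65.5 and 63.6 RPKM and non-basal cells 50.1, 48.8 and 45.7 RPKM, whereas the 12 lung libraries lay between 9.15 and 21.2 RPKM. No neighbours in the order of the 6 populations overlapped. BSCs stood 6.78-fold above alveolar cells (2.76 ± 0.08 (SE), adjusted p = 7.12e-15, edgeR) and 1.31-fold above non-basal cells (0.39 ± 0.07 (SE), adjusted p = 2.82e-04, edgeR). The non-basal libraries held 72.4 to 79.5% of the BSC level of *Ccnd2*. They held 6.72 to 8.45% of that of *Krt5*, the keratin gene of basal cells. The part of basal cells in the non-basal *Ccnd2* level was not tested. Within the lung *Ccnd2* was at 19.3, 19.3 and 21.2 RPKM in CD24hi cells, 17.2, 17.7 and 18.1 RPKM in EpCAM-negative cells, 11.4, 10.4 and 10.6 RPKM in CD24lo cells and 9.37, 9.15 and 9.36 RPKM in alveolar cells. The difference between CD24hi and CD24lo cells was 0.88 ± 0.08 (SE) on the log2 scale (adjusted p = 2.59e-08, edgeR). That between CD24lo and alveolar cells was small (0.22 ± 0.08 (SE), adjusted p = 0.0257, edgeR), and its adjusted p was 0.0565 to 0.0945 when the first CD24lo library or the first or second alveolar library was left out.

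*Ccnd3*, the D-type cyclin known for its part in lymphocyte development, was measured at 44.9, 41.9 and 43.4 RPKM in alveolar cells, above all other libraries. EpCAM-negative cells followed with 33.1, 35.1 and 30.9 RPKM, and the remaining 12 libraries ranged from 16.6 to 28.2 RPKM. BSCs were 2.25-fold below alveolar cells (-1.17 ± 0.10 (SE), adjusted p = 1.10e-08, edgeR), CD24lo cells 2.18-fold and CD24hi cells 1.86-fold. The difference between CD24hi and CD24lo cells did not pass the test (0.23 ± 0.10 (SE), adjusted p = 0.0622, edgeR) and was 0.08 (log2) without the first CD24hi library, which at 28.2 RPKM lay above the 20.8 and 21.0 RPKM of the other two. Without the second or the third CD24hi library it did pass, with adjusted p-values of 0.0220 and 0.0239. Between BSCs and non-basal cells *Ccnd1* and *Ccnd3* did not pass the test either, with differences of 0.24 ± 0.11 (SE) and 0.17 ± 0.10 (SE), although the ranges of their 3 libraries did not overlap. Both passed in a fit of only the libraries compared (adjusted p = 0.0133 and 0.0319, edgeR) and with library size alone. *Ccnd1* also passed with DESeq2 (adjusted p = 0.0367), and *Ccnd3* with a correction for gene length (adjusted p = 0.0131, edgeR).

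Since all 3 proteins serve the same kinases, their transcripts were also added per length. The sum was 165 ± 5.67 RPKM (SD, n = 3) in BSCs, 136 ± 5.55 RPKM in non-basal cells, 139 ± 17.1 RPKM in CD24lo cells, 102 ± 5.35 RPKM in alveolar cells, 96.5 ± 4.68 RPKM in CD24hi cells and 60.4 ± 2.33 RPKM in EpCAM-negative cells. This span was much narrower than that of *Ccnd1* or *Ccnd2* alone, but not than that of *Ccnd3*, whose highest mean was 2.52 times the lowest. The sum and the shares depend on the deposited lengths, which cover 80.6% (*Ccnd1*), 61.3% (*Ccnd2*) and 25.8% (*Ccnd3*) of the exon bases in GENCODE. *Ccnd1* made up 77.6 ± 3.58% of the sum in CD24lo cells, between 48.2 and 55.2% on average in the other epithelial populations and 16.1 ± 0.150% in EpCAM-negative cells. *Ccnd2* supplied 38.1 ± 0.532% in BSCs and 35.5 ± 0.455% in non-basal cells, but 9.13 ± 0.369% in alveolar and 7.88 ± 1.41% in CD24lo cells. *Ccnd3* accounted for 54.7 ± 1.49% in EpCAM-negative and 42.6 ± 0.775% in alveolar cells and for 11.7 ± 0.630% in BSCs. BSCs and alveolar cells had similar shares of *Ccnd1*, and the remainder was mostly *Ccnd2* in BSCs and mostly *Ccnd3* in alveolar cells.

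**Figure D2:**
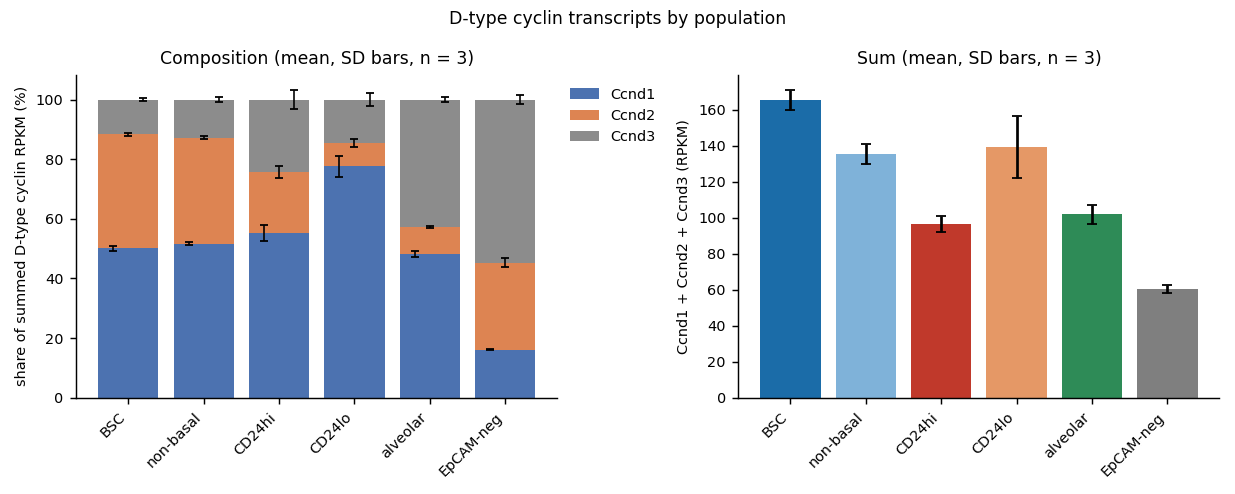
Left, share (%) of each D-type cyclin in the summed RPKM of the 3 genes; right, the sum in RPKM; bars are means of 3 libraries per population with SD. *Ccnd1* ranged from 16.1% of the sum in EpCAM-negative cells to 77.6% in CD24lo cells, and the sum from 60.4 to 165 RPKM.

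*Cdk4* was the main kinase transcript everywhere, with 92.6 to 99.1% of the summed *Cdk4* and *Cdk6* RPKM as population means. This share depends on the deposited length of *Cdk6*, which at 2470 bases covers 17.7% of its exon bases in GENCODE, and reads outside this length would not have been counted. *Cdk4* was at 144, 113 and 103 RPKM in CD24hi cells, above all other libraries, and at 86.3, 77.4 and 76.6 RPKM in BSCs against 64.6, 61.8 and 61.3 RPKM in non-basal cells. CD24lo cells had 74.9, 67.8 and 55.3 RPKM, alveolar cells 71.1, 67.8 and 69.6 RPKM and EpCAM-negative cells 58.4, 54.1 and 53.5 RPKM. The population enriched in ciliated cells, which do not divide, therefore had the highest *Cdk4* level. It exceeded CD24lo cells by 0.86 ± 0.12 (SE) (adjusted p = 6.65e-06, edgeR) and alveolar cells by 0.79 ± 0.12 (SE) (adjusted p = 1.28e-05, edgeR) on the log2 scale, and by 0.71 and 0.64 without the first CD24hi library. BSCs exceeded non-basal cells 1.28-fold (0.36 ± 0.12 (SE), adjusted p = 0.0169, edgeR), a call that was lost without the first BSC library (adjusted p = 0.0702) or without the third non-basal library (adjusted p = 0.0524). The difference between BSCs and alveolar cells did not pass the test (0.20 ± 0.12 (SE), adjusted p = 0.132, edgeR). It passed with a correction for gene length (0.43, adjusted p = 4.04e-04), in a fit of only the libraries compared (0.26, adjusted p = 0.00213) and with library size alone (0.61, adjusted p = 3.99e-04).

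*Cdk4* is a textbook target of MYC, which binds the E-box CACGTG with its partner MAX, and *Myc* was the member that differed most between the tracheal populations. The sequence of the *Cdk4* promoter is shown for that reason, being the 249 bases before the annotated start of *Cdk4* on the plus strand in RefSeq's GRCm38.p6 annotation (chr10:127063285-127063533), with each E-box in capitals.

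Cdk4 promoter: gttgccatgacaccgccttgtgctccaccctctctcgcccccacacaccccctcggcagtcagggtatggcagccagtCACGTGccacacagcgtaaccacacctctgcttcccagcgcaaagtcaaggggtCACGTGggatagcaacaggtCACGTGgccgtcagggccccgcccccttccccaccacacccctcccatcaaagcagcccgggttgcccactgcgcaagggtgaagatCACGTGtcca

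CACGTG reads the same on both strands, so each match counts once. This window held 4 of them. Of 32851 RefSeq promoters cut to the same 249 bases, 6% held at least 1 and 0.0213%, or 7 promoters, held at least 4. Promoter sequences were at hand for *Ccnd3*, *Cdk6*, *Cdkn1b* and *Cdkn2b* as well. The window of *Cdk6* held 1 E-box, and the letters were not found in those of the other 3 genes. A match describes the sequence and shows no binding. The level of *Cdk4* did not follow that of *Myc* across populations: CD24hi cells had the most *Cdk4* with *Myc* between 8.95 and 11.2 RPKM, and EpCAM-negative cells the least with *Myc* between 29.2 and 33.4 RPKM.

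*Cdk6*, the second kinase partner of D-type cyclins, was a low transcript. Non-basal cells had 4.14, 5.74 and 5.19 RPKM and BSCs 3.50, 3.69 and 3.82 RPKM. All lung libraries lay lower, with CD24lo cells at 1.90, 2.31 and 2.14 RPKM, EpCAM-negative cells at 1.53, 1.84 and 2.31 RPKM, CD24hi cells at 0.733, 1.20 and 1.05 RPKM and alveolar cells at 0.749, 0.559 and 0.695 RPKM. BSCs were 5.48-fold above alveolar cells (2.45 ± 0.21 (SE), adjusted p = 1.29e-08, edgeR) and CD24lo cells 3.16-fold (1.66 ± 0.23 (SE), adjusted p = 1.08e-05, edgeR). CD24hi cells were 2.12-fold below CD24lo cells (-1.09 ± 0.21 (SE), adjusted p = 2.90e-04, edgeR), so that *Cdk4* and *Cdk6* differed in opposite directions between the airway populations. Their difference from alveolar cells did not pass the test (0.57 ± 0.25 (SE), adjusted p = 0.0522, edgeR). It passed with a replicate block for the mouse (0.56, adjusted p = 0.0497) and without the first CD24hi library (0.76, adjusted p = 0.0141). *Cdk6* was lower in BSCs than in non-basal cells (-0.45 ± 0.16 (SE), adjusted p = 0.0267, edgeR), but the adjusted p ranged from 0.0539 to 0.138 when any of 5 of the 6 tracheal libraries was left out, all but the first non-basal one.

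**Figure D3:**
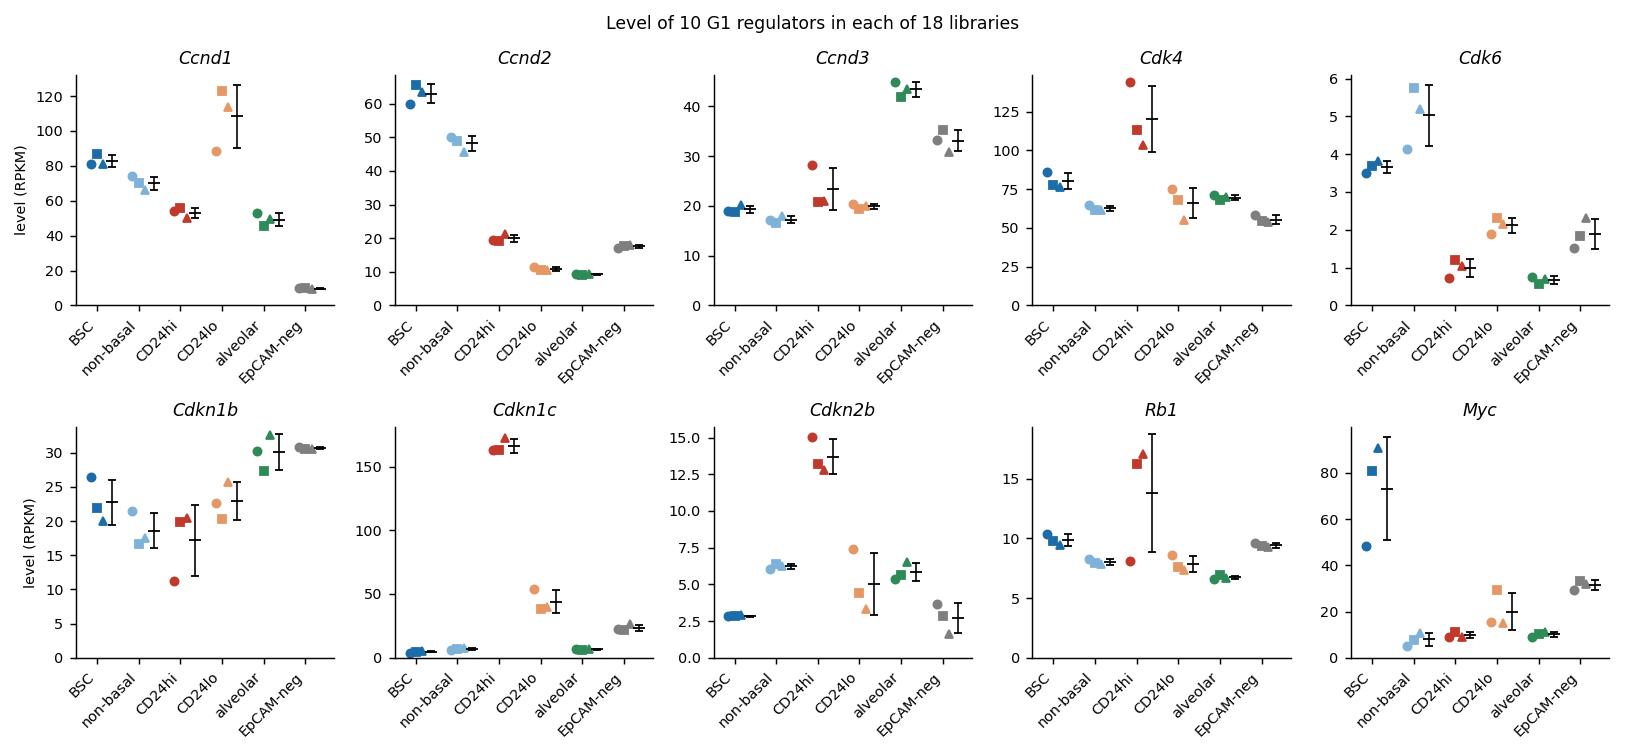
Level in RPKM (y axis, from 0) of each of the 10 genes in the 18 libraries, by population (x axis); circles, squares and triangles are mice 1, 2 and 3 in trachea and 4, 5 and 6 in lung, and black bars are the mean and SD of 3 libraries. *Cdkn1c* lay between 163 and 173 RPKM in CD24hi cells and under 10 RPKM in BSCs, non-basal and alveolar cells, and the first CD24hi library stood below the other two for *Cdkn1b* and *Rb1*.

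Among the inhibitors, *Cdkn1c* was the most unequal of the 10 genes, with a highest mean 35.5 times the lowest. It encodes p57, an imprinted inhibitor that accompanies withdrawal from the cycle in many tissues. CD24hi airway cells had 163, 163 and 173 RPKM and CD24lo cells 54.2, 38.4 and 39.7 RPKM. EpCAM-negative cells followed with 22.5, 21.8 and 26.4 RPKM, and alveolar cells at 6.85, 5.78 and 6.86 RPKM, non-basal cells at 5.95, 6.91 and 7.28 RPKM and BSCs at 4.10, 4.78 and 5.16 RPKM formed a low group. CD24hi cells exceeded CD24lo cells 3.76-fold (1.91 ± 0.13 (SE), adjusted p = 2.23e-09, edgeR) and alveolar cells 25.5-fold (4.67 ± 0.15 (SE), adjusted p = 8.99e-14, edgeR). CD24lo cells exceeded alveolar cells 6.79-fold (2.76 ± 0.14 (SE), adjusted p = 3.99e-11, edgeR). The CD24lo libraries had 23.1 to 32.7% of the mean *Cdkn1c* level of CD24hi cells, but 8.23 to 17.2% of their *Foxj1* and 6.83 to 17.6% of their *Tppp3*, a pair of transcripts of ciliated cells. Within the CD24lo population the first library was highest for *Foxj1*, *Tppp3* and *Cdkn1c* alike, and without it the difference between CD24hi and CD24lo cells was 2.09 (log2). Non-basal tracheal cells also carried *Foxj1*, at 31.7, 53.8 and 42.9 RPKM, with *Cdkn1c* no higher than 7.28 RPKM. In CD24hi cells *Foxj1* was at 588 to 698 RPKM. The ciliated marker *Ccdc113* was at 6.94 to 9.17 RPKM in non-basal and 192 to 216 RPKM in CD24hi cells. The part of ciliated cells in the *Cdkn1c* levels was not tested. BSCs were below non-basal cells (-0.52 ± 0.13 (SE), adjusted p = 0.00381, edgeR) and below alveolar cells (-0.47 ± 0.14 (SE), adjusted p = 0.00774, edgeR), but with library size alone these differences were -0.17 and -0.07 and no longer passed the test.

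*Cdkn2b*, which encodes p15, an inhibitor induced by TGF-beta, was likewise highest in CD24hi cells, at 15.1, 13.2 and 12.8 RPKM. Non-basal cells had 6.04, 6.40 and 6.24 RPKM, alveolar cells 5.38, 5.61 and 6.52 RPKM, CD24lo cells 7.40, 4.44 and 3.31 RPKM, EpCAM-negative cells 3.63, 2.85 and 1.64 RPKM and BSCs 2.82, 2.82 and 2.88 RPKM. The groups below CD24hi cells overlapped in part, and CD24lo and EpCAM-negative libraries were widely spread. BSCs were 2.19-fold below non-basal cells (-1.13 ± 0.22 (SE), adjusted p = 3.84e-04, edgeR) and 2.05-fold below alveolar cells (-1.04 ± 0.24 (SE), adjusted p = 8.75e-04, edgeR). CD24hi cells were 2.68-fold above CD24lo cells (1.42 ± 0.23 (SE), adjusted p = 5.08e-05, edgeR), and by 1.81 (log2) without the first CD24lo library. EpCAM-negative cells were below the mean of the lung epithelial populations (-1.46 ± 0.22 (SE), adjusted p = 1.16e-05, edgeR). Between CD24lo and alveolar cells the difference was -0.19 ± 0.25 (SE) and was not called, but without the first CD24lo library it was -0.58 with an adjusted p of 0.0483. BSCs therefore had the lowest or nearly the lowest levels of both *Cdkn1c* and *Cdkn2b*, and CD24hi cells the highest of both.

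*Cdkn1b* encodes p27, an inhibitor that is largely controlled by protein degradation. Its transcript varied least, the highest mean being 1.78 times the lowest. EpCAM-negative cells had 30.9, 30.6 and 30.5 RPKM, alveolar cells 30.2, 27.4 and 32.7 RPKM, CD24lo cells 22.7, 20.3 and 25.8 RPKM, BSCs 26.4, 21.9 and 20.0 RPKM, non-basal cells 21.5, 16.7 and 17.6 RPKM and CD24hi cells 11.2, 19.9 and 20.5 RPKM. Of the 5 neighbouring pairs in this order, 4 overlapped. Alveolar cells were above CD24hi cells (log2 fold change of CD24hi cells -0.81 ± 0.18 (SE), adjusted p = 6.61e-04, edgeR), by less without the first CD24hi library (-0.57, adjusted p = 0.00105). BSCs lay below alveolar cells at the edge of the threshold (-0.40 ± 0.17 (SE), adjusted p = 0.0493, edgeR), a call that was lost under 9 alternatives, among them leaving out the second or the third BSC library or the first or the third alveolar library (adjusted p between 0.095 and 0.170), and the difference was 0.0065 with library size alone. CD24hi and CD24lo cells were not distinguished (-0.42 ± 0.18 (SE), adjusted p = 0.0563, edgeR). The replicate block brought this difference past the threshold (-0.43, adjusted p = 0.0315), but it was -0.18 (adjusted p = 0.252) without the first CD24hi library. It also passed without the second or the third CD24hi library or the second CD24lo library (adjusted p between 0.0219 and 0.0428).

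Of 4 other inhibitor genes, 3 were expressed highly enough to be tested. *Cdkn1a*, which encodes the p53 target p21, was at 145, 124 and 123 RPKM in CD24hi cells and at 53.5, 39.1 and 31.9 RPKM in CD24lo cells (1.66 ± 0.16 (SE), adjusted p = 9.04e-08, edgeR), and the groups did not overlap. The difference was 1.58 without the first CD24hi and 1.88 without the first CD24lo library. It was higher in BSCs than in non-basal cells (0.62 ± 0.15 (SE), adjusted p = 0.00266, edgeR), but alveolar cells had more of it than BSCs (BSCs against alveolar -0.51 ± 0.15 (SE), adjusted p = 0.00732, edgeR). *Cdkn2c*, a further inhibitor of CDK4 and CDK6, went the other way in the airway: it was lower in CD24hi than in CD24lo cells (-1.76 ± 0.23 (SE), adjusted p = 3.33e-06, edgeR), and was highest in EpCAM-negative cells at 19.2, 20.0 and 25.1 RPKM. CD24hi cells thus had higher levels of *Cdkn1a*, *Cdkn1c* and *Cdkn2b* and lower levels of *Cdkn2c* than CD24lo cells.

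*Rb1*, the gene of the retinoblastoma protein, had 10.4, 9.73 and 9.44 RPKM in BSCs, 8.30, 7.93 and 7.82 RPKM in non-basal cells, 8.64, 7.60 and 7.32 RPKM in CD24lo cells, 9.62, 9.34 and 9.25 RPKM in EpCAM-negative cells and 6.61, 6.90 and 6.66 RPKM in alveolar cells. The CD24hi libraries were discordant, with 8.13 RPKM in the first and 16.2 and 17.0 RPKM in the others. BSCs were 1.46-fold above alveolar cells (0.55 ± 0.18 (SE), adjusted p = 0.0120, edgeR), a difference of 0.38 that did not pass the test after a correction for gene length (adjusted p = 0.0612). CD24hi cells exceeded CD24lo cells by 0.81 ± 0.18 (SE) (adjusted p = 9.48e-04, edgeR) and alveolar cells by 1.04 ± 0.18 (SE) (adjusted p = 7.57e-05, edgeR). Without the first CD24hi library these differences were 1.08 and 1.31. With it, the CD24hi and CD24lo ranges overlapped. BSCs and non-basal cells were not distinguished in *Rb1* (0.30 ± 0.17 (SE), adjusted p = 0.171, edgeR). The difference passed in a fit of only the libraries compared (0.29, adjusted p = 0.00262, edgeR) and with library size alone (0.64, adjusted p = 0.00627, edgeR).

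Of 12 pocket protein and E2F genes, BSCs had more of 9 and less of 1 than alveolar cells, and the list's median was 0.71 (log2) where that of all tested genes was -0.09, with 66.1% of them called. *E2f8* and *E2f7*, a pair of repressive E2F genes of cycling cells, were higher by 3.73 ± 0.39 (SE) and 3.35 ± 0.38 (SE), and *E2f2* was lower by -3.36 ± 0.15 (SE), all with an adjusted p of at most 4.42e-07 (edgeR). *E2f7* was also higher in CD24hi than in alveolar cells (4.33 ± 0.37 (SE), adjusted p = 1.13e-08, edgeR) and in CD24lo cells (3.07 ± 0.41 (SE)). *E2f7* was near the floor in alveolar cells, at 0.0805 to 0.0922 RPKM, against 0.825 to 0.933 RPKM in BSCs and 1.59 to 1.89 RPKM in CD24hi cells. So was *E2f8*, at 0.0955 to 0.199 RPKM in alveolar cells against 1.59 to 2.14 RPKM in BSCs. BSCs did not differ detectably from non-basal cells in *E2f7* (-0.27 ± 0.24 (SE), adjusted p = 0.369, edgeR). Against non-basal cells, 5 of the 12 were higher and 3 lower in BSCs, with a median of 0.14 against -0.02 over all tested genes, of which 48.2% were called.

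*Myc* was highest in BSCs. The 3 BSC libraries had 48.3, 80.7 and 90.8 RPKM, against 5.24, 7.82 and 10.8 RPKM in non-basal cells of the same mice, 8.82, 10.4 and 11.0 RPKM in alveolar cells and 9.19, 11.2 and 8.95 RPKM in CD24hi cells. CD24lo cells had 15.6, 29.2 and 15.2 RPKM and EpCAM-negative cells 29.2, 33.4 and 32.0 RPKM. Every BSC library lay above every other library. BSCs exceeded non-basal cells 9.18-fold (3.20 ± 0.28 (SE), adjusted p = 5.43e-08, edgeR) and alveolar cells 7.27-fold (2.86 ± 0.28 (SE), adjusted p = 8.72e-08, edgeR). The non-basal level of *Myc* was 7.16 to 14.8% of the BSC mean. For the basal markers *Krt5* and *Trp63* this share was 6.72 to 8.45% and 9.16 to 17.4%. For *Ccnd1*, *Ccnd2* and *Cdk6* it was 80.1 to 89.1%, 72.4 to 79.5% and 113 to 157%. The part of basal cells in these non-basal levels was not tested. In the lung, EpCAM-negative cells were above the mean of the epithelial populations (1.33 ± 0.21 (SE), adjusted p = 1.75e-05, edgeR), and CD24lo cells above CD24hi cells (CD24hi lower, -1.03 ± 0.28 (SE), adjusted p = 0.00428, edgeR) and above alveolar cells (0.99 ± 0.28 (SE), adjusted p = 0.00711, edgeR). Both of the latter leaned on the second CD24lo library. Without it the differences were -0.66 (adjusted p = 0.0466, edgeR) and 0.63 (adjusted p = 0.0655, edgeR). That library also had the most *Krt5* of the CD24lo libraries, at 60.0 RPKM against 32.0 and 36.5 RPKM. Its *Trp63* was at 11.9 RPKM against 6.78 and 8.57 RPKM. The 4 basal markers summed to 41.9 to 76.3 RPKM in CD24lo, 4.51 to 5.46 RPKM in CD24hi and 0.303 to 1.26 RPKM in alveolar cells. The part of basal cells in the *Myc* levels of the lung was not tested. In *Myc*, CD24hi and alveolar cells did not differ detectably (-0.04 ± 0.28 (SE), adjusted p = 0.914, edgeR).

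*Myc* is itself an early response gene, and transcripts of that kind can be induced while tissue is dissociated. A list of 8 immediate early genes, *Fos*, *Fosb*, *Jun*, *Junb*, *Egr1*, *Ier2*, *Atf3* and *Zfp36*, which was chosen after the *Myc* levels had been seen, was therefore read beside it. Their summed level was 10380, 13529 and 13182 RPKM in BSCs, 5508, 7876 and 7961 RPKM in NGFR-negative tracheal cells and 3657, 3539 and 4161 RPKM in alveolar cells. All 8 were higher in BSCs than in non-basal cells and all 8 higher than in alveolar cells, with medians of 0.81 and 1.51 (log2) against -0.02 and -0.09 over all tested genes, of which 48.2 and 66.1% were called. Mouse 1 had the lowest *Myc* and the lowest immediate early sum of both tracheal populations. EpCAM-negative cells came second to BSCs on average in both measures, with sums of 9799, 9964 and 11528 RPKM and 29.2 to 33.4 RPKM of *Myc*. CD24hi cells had sums of 8280, 7693 and 7887 RPKM with at most 11.2 RPKM of *Myc*, while CD24lo cells had more *Myc* at lower sums of 6015, 6328 and 5892 RPKM. The part of dissociation in the *Myc* levels was not tested.

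**Figure D4:**
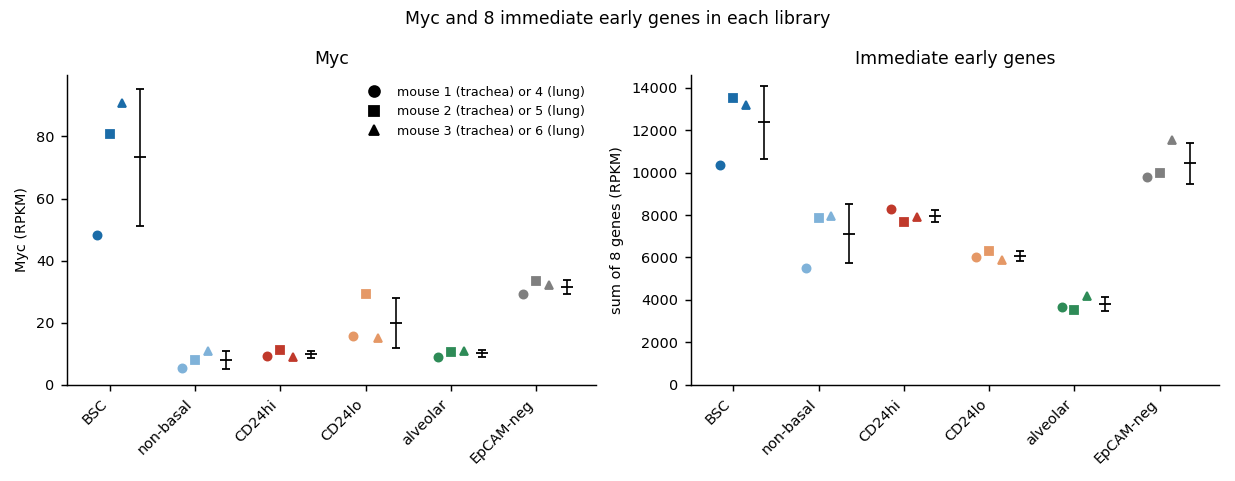
*Myc* (left) and the sum of 8 immediate early genes (right) in RPKM for each library by population (x axis); circles, squares and triangles are mice 1, 2 and 3 in trachea and 4, 5 and 6 in lung, and black bars are the mean and SD of 3 libraries. *Myc* in BSCs lay between 48.3 and 90.8 RPKM, above all other libraries, and the immediate early sum ranged from 3539 RPKM in alveolar cells to 13529 RPKM in BSCs.

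The other genes of the MYC network, which share or compete for the partner MAX, showed a different division. *Mycl*, the paralogue first found in lung cancer, was at 28.8, 30.3 and 28.9 RPKM in BSCs, 24.8, 23.4 and 24.9 RPKM in NGFR-negative tracheal cells and between 14.5 and 27.8 RPKM in both airway populations, but at 0.252, 0.552 and 0.346 RPKM in alveolar cells and at most 0.196 RPKM in EpCAM-negative cells. It thus separated airway epithelium from alveolar cells (BSCs against alveolar 6.25 ± 0.22 (SE), adjusted p = 5.70e-14, edgeR), with no overlap, whereas *Myc* separated BSCs from the rest. *Mxd3*, a MAX partner gene of dividing cells, was higher in BSCs than in non-basal cells (1.48 ± 0.26 (SE), adjusted p = 1.46e-04, edgeR) and alveolar cells (2.67 ± 0.34 (SE), adjusted p = 2.05e-06, edgeR). Its level was low, at 2.70 to 3.63 RPKM in BSCs and 0.233 to 0.779 RPKM in alveolar cells. Of the 11 network genes, 3 were higher in BSCs than in non-basal cells and the other 8 were not called, with a median of -0.01 against -0.02 over all tested genes, of which 48.2% were called. Against alveolar cells 6 were higher and 3 lower, with a median of 0.43 against -0.09, where 66.1% of all tested genes were called. A list of 15 nucleolar and metabolic MYC targets was also read. Of these, BSCs had more of 9 and less of 1 than non-basal cells, with a median of 0.41 against -0.02 over all tested genes, and 12 were higher than in alveolar cells with the other 3 not called and a median of 0.82 against -0.09. Of all tested genes, 48.2 and 66.1% were called in these comparisons. The largest differences from alveolar cells were those of *Ddx21* (1.61 ± 0.14 (SE), adjusted p = 1.32e-08, edgeR), *Rrs1* (1.52 ± 0.14 (SE), adjusted p = 4.81e-08, edgeR) and *Nop58* (1.23 ± 0.17 (SE), adjusted p = 5.69e-06, edgeR), all of which act in ribosome assembly. In CD24hi cells 10 of the 15 were lower than in CD24lo cells and 1 was higher, *Odc1*, the first enzyme of polyamine synthesis (1.88 ± 0.12 (SE), adjusted p = 9.49e-10, edgeR). The median of the 15 was -0.42 against -0.06 over all tested genes, of which 55% were called. Without the first CD24lo library 11 were lower, and without the first CD24hi library 9.

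Genes that act beyond the G1 checkpoint were higher in BSCs as well. Of 14 S phase genes, 13 were higher in BSCs than in non-basal cells and 11 higher than in alveolar cells, the remainder not being called, with medians of 0.81 and 0.76 against -0.02 and -0.09 over all tested genes, of which 48.2 and 66.1% were called. *Ccna2*, the cyclin of S phase, was higher by 1.33 ± 0.20 (SE) and 2.76 ± 0.24 (SE), with adjusted p-values of 2.55e-05 and 1.20e-08 (edgeR). Of 9 mitotic genes, 8 were higher and 1 lower in BSCs in each of these comparisons, with medians of 1.17 and 2.92. The lower gene, named here after its values were seen, was *Plk1* against non-basal cells (13.1 to 13.4 RPKM in BSCs, 20.8 to 23.1 RPKM in non-basal cells). Against alveolar cells it was *Bub1* (1.92 to 2.30 RPKM in BSCs, 4.68 to 5.18 RPKM in alveolar cells). *Mki67*, the proliferation marker, was higher by 1.58 ± 0.28 (SE) and 3.63 ± 0.32 (SE), with adjusted p-values of 1.60e-04 and 2.08e-08 (edgeR). In CD24hi cells 10 of the 14 S phase genes and 5 of the 9 mitotic genes were lower than in alveolar cells, with medians of -0.93 and -1.28 against -0.01 over all tested genes, of which 61.9% were called. *Tk1*, a nucleotide salvage enzyme of S phase, was lower by -3.15 ± 0.21 (SE) (adjusted p = 4.74e-10, edgeR). The counts were the same without the first CD24hi library. The second alveolar library carried more *Mki67* (1.64 against 0.735 and 0.761 RPKM) and *Top2a* (2.61 against 1.32 and 1.39 RPKM) than the others, though not more *Bub1b* (2.86 against 3.72 and 2.78 RPKM). The gene lists were not recomputed without this library. Of the mitotic genes 1, *Cdk1*, named here after its values were seen, was higher in CD24hi than in alveolar cells (0.63 ± 0.24 (SE), adjusted p = 0.0321, edgeR). In EpCAM-negative cells *Cdk1* was at 0.168 to 0.289 RPKM and *Top2a* at 0.462 to 0.584 RPKM, below the 1.35 to 1.63 and 1.23 to 2.27 RPKM of CD24hi cells. CD24lo cells, with the highest *Ccnd1* level, had 9 of the 14 S phase genes lower than alveolar cells and the other 5 not called, with a median of -0.52 against 0.03 over all tested genes. Without the first CD24lo library 6 of the 14 were lower. The mitotic list did not go the same way: 3 of its 9 genes were higher and 2 lower in CD24lo than in alveolar cells. Its median was 0.16, and 48.4% of all tested genes were called in this comparison. Without the first CD24lo library 2 were higher and 2 lower.

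**Figure D5:**
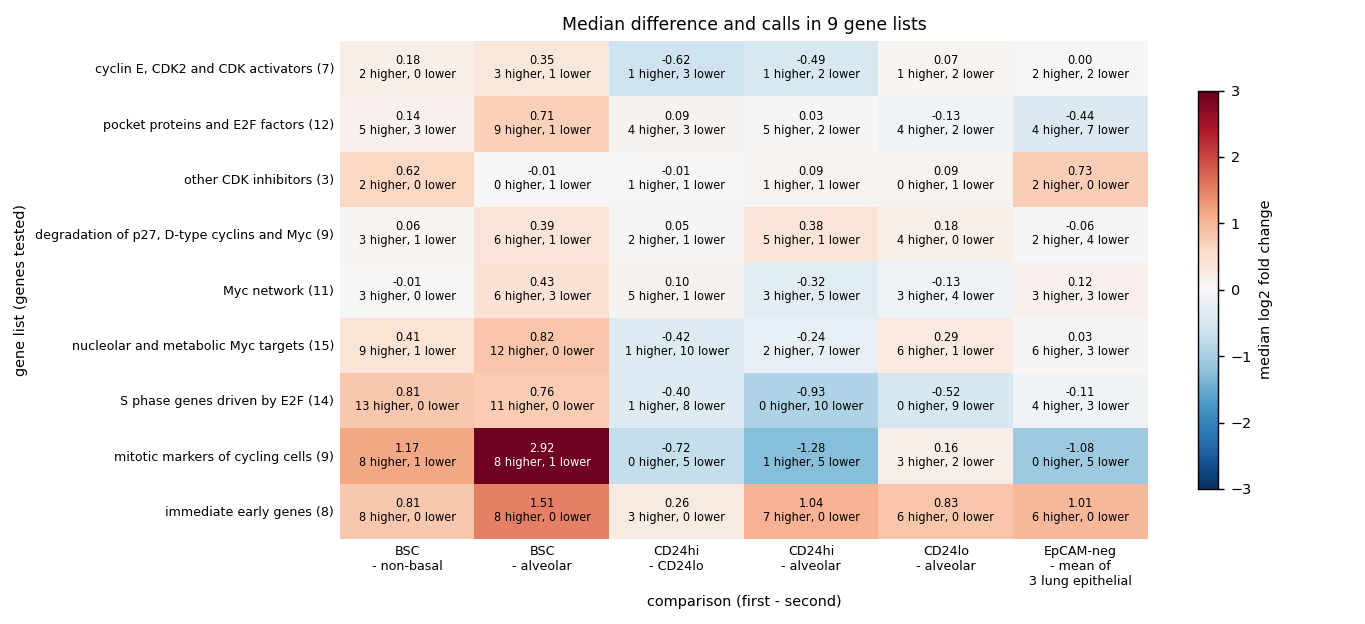
Median log2 fold change (colour, and first line of each cell) and number of genes called higher and lower (second line; edgeR, adjusted p-value under 0.05) for 9 gene lists (y axis, with the number of genes tested) in the 6 comparisons (x axis). The highest median was that of 9 mitotic genes between BSCs and alveolar cells, 2.92, and the lowest that of the same list between CD24hi and alveolar cells, -1.28.

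The genes of cyclin E, CDK2 and the CDK-activating kinase, which act after the D-type cyclins, numbered 7. Of these, 2 were higher in BSCs than in non-basal cells, *Ccne2* (0.99 ± 0.27 (SE), adjusted p = 0.00556, edgeR) and *Cdk2* (0.72 ± 0.12 (SE), adjusted p = 1.22e-04, edgeR), with a list median of 0.18 against -0.02 over all tested genes, of which 48.2% were called. *Cdk2* was lower than in alveolar cells in all 3 populations compared with them, with log2 fold changes of -0.57 ± 0.12 (SE) for BSCs, -0.98 ± 0.13 (SE) for CD24lo cells and -2.02 ± 0.14 (SE) for CD24hi cells. *Mnat1*, a subunit of the CDK-activating kinase, was higher in CD24hi than in alveolar cells (2.21 ± 0.10 (SE), adjusted p = 3.63e-12, edgeR), and *Cdc25a*, a phosphatase that activates CDK2, was lower (-1.95 ± 0.17 (SE), adjusted p = 1.08e-08, edgeR). Between CD24hi and CD24lo cells 1 of the 7 was higher and 3 were lower, with a median of -0.62 against -0.06 over all tested genes, of which 55% were called. The median of the 7 was -0.34 without the first CD24hi library. Of 9 genes for the degradation of p27, D-type cyclins and MYC, BSCs had more of 6 and less of 1 than alveolar cells, with a median of 0.39 against -0.09 over all tested genes, of which 66.1% were called. The 6 higher genes included *Skp2*, the F-box protein that marks p27 for destruction (1.23 ± 0.20 (SE), adjusted p = 3.24e-05, edgeR), and *Usp28*, a deubiquitinase that stabilises MYC (1.40 ± 0.11 (SE), adjusted p = 2.86e-09, edgeR). *Usp28* was higher in BSCs than in non-basal cells too (1.42 ± 0.10 (SE), adjusted p = 6.00e-09, edgeR). *Skp2* was also higher than in alveolar cells in CD24hi (1.09 ± 0.21 (SE)) and CD24lo cells (1.11 ± 0.21 (SE)). Its level was low throughout, with 0.293 to 0.445 RPKM in alveolar cells and 0.807 to 0.854 RPKM in BSCs.

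EpCAM-negative cells, in which the fibroblast markers summed to 5570 to 5782 RPKM, combined low *Ccnd1* with levels of *Ccnd3*, *Cdkn1b* and *Myc* above the mean of the lung epithelial populations. The differences were 0.28 ± 0.08 (SE) for *Ccnd3* (adjusted p = 0.00499, edgeR), 0.43 ± 0.14 (SE) for *Cdkn1b* (adjusted p = 0.0112, edgeR), 0.49 ± 0.06 (SE) for *Ccnd2* (adjusted p = 9.81e-07, edgeR) and 0.76 ± 0.17 (SE) for *Cdk6* (adjusted p = 5.74e-04, edgeR). *Cdk4* and *Cdkn1c* were lower, by -0.57 ± 0.10 (SE) (adjusted p = 6.35e-05, edgeR) and -0.62 ± 0.11 (SE) (adjusted p = 7.15e-05, edgeR). *Ccnd1* was the only member for which the EpCAM-negative libraries lay outside the range of all 9 epithelial ones, since the mean covers populations as unlike as CD24hi and alveolar cells. For *Cdkn1c*, for example, EpCAM-negative cells lay above alveolar cells and below both airway populations. *Rb1* did not differ by this test (0.06 ± 0.15 (SE), adjusted p = 0.727, edgeR).

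The genes with the most similar patterns were sought by the Pearson correlation of log2 CPM over the 18 libraries, among 10553 genes that averaged 10 CPM or more. These values are descriptions. The libraries fall into 6 populations of 3, which share organ and depth, so that a few population means fix each correlation. *Ccnd2* was most like *Irf2bpl* (r = 0.987), *Wdr3* (r = 0.967) and *Ylpm1* (r = 0.958), and *Ccnd3* most like *Mtch1* (r = 0.981), *Marveld1* (r = 0.979) and *Cuedc2* (r = 0.975). For *Ccnd1* the closest gene had no symbol (r = 0.981), followed by *0610040J01Rik* (r = 0.972) and *Ccdc120* (r = 0.971). *Cdk4* was most like *Dgcr6* (r = 0.969), *Pdgfa* (r = 0.966) and *Pycrl* (r = 0.962), and *Cdk6* most like *Cpd* (r = 0.971), *Lgr6* (r = 0.969) and *Mx1* (r = 0.963). *Cdkn1c* resembled *Tnn* (r = 0.971) and *Srxn1* (r = 0.963), and *Cdkn2b* resembled *Pim2* (r = 0.949), *Ndufaf3* (r = 0.942) and *Sys1* (r = 0.942). The patterns of *Cdkn1b* (*Pdcl*, *Commd8* and *AW549877*, each r = 0.918 to 0.919), *Rb1* (*Efr3a*, r = 0.930; *Dync1i2* and *Rev3l*, both r = 0.907) and *Myc* (*Slc20a2*, r = 0.910; *Dst*, r = 0.906; *Arhgap23*, r = 0.903) were matched less closely. Among the members themselves the highest correlation was that of *Ccnd2* with *Cdk6* (r = 0.776) and the lowest that of *Ccnd3* with *Cdk6* (r = -0.783).

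The members lie on 8 chromosomes of GRCm38 by GENCODE: *Cdkn2b* at chr4:89306299-89311039, *Cdk6* at chr5:3341485-3531008, *Ccnd2* at chr6:127125162-127152193, *Cdkn1b* at chr6:134920401-134925513, *Cdkn1c* at chr7:143458339-143461050, *Ccnd1* at chr7:144929931-144939925, *Cdk4* at chr10:127063534-127067920, *Rb1* at chr14:73183673-73325822, *Myc* at chr15:61985391-61990374 and *Ccnd3* at chr17:47505051-47599691. *Cdkn1c* and *Ccnd1* share the distal end of chromosome 7, yet were highest in different airway populations. Part of the exon sequence of 7 members is also exonic in a gene on the opposite strand: 30.7% for *Cdkn1c*, 23.4% for *Ccnd1*, 19.7% for *Cdk4*, where the neighbour is *Tspan31*, 14.9% for *Rb1* and less than 10% for the other 3. Whether reads were counted by strand is not given in the sources used here, so reads of such a pair cannot be told apart. No such overlap was annotated for *Cdkn1b*, *Cdkn2b* and *Myc*.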

How the data were processed

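Sorted cells of mouse trachea and lung were sequenced by single-end RNA-seq on an Illumina HiSeq. The authors aligned the reads to mm10 with Rsubread, assigned them to Entrez genes with featureCounts and its in-built RefSeq annotation, and deposited these counts unnormalized together with the length of each of the 27179 genes. bcl2fastq 1.8.4 is named in the submitters' processing notes. A table of the whole series with the same libraries was not used here. Populations and mice were taken from the sample labels. The series' design text speaks of the airways of 6 lungs and does not name the trachea, and the labels were followed.

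All further values were computed from the deposited counts in R 4.3.3. A gene was kept if its CPM exceeded 0.2 in 3 or more libraries, which left 17989 genes. Scaling was by TMM, and edgeR 4.0.16 (glmQLFit, glmQLFTest) was used to fit the 18 libraries together with a mean per population. The Benjamini-Hochberg adjustment ran over these genes within each of 6 comparisons. RPKM used the deposited length. The standard error is the log2 fold change divided by the square root of F. Symbols came from NCBI's GRCm38.p6 table, which matched 25275 identifiers, coordinates from GENCODE and promoters from RefSeq.

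The 10 members and 8 lists of 81 genes were chosen with earlier results of these data known, and the immediate early genes after the levels were seen. All members are plotted in every comparison, and not every difference is also given in the text. From each list at most the 3 genes with the largest differences among those called are named. *Mxd3*, *Skp2*, *Usp28* and the other list genes follow this rule, except where a gene is said to be named after its values were seen. Levels such as those of *Cdkn1a*, *Cdkn2c* and *Mycl* are shown for genes it names. The 3 nearest genes per member have a mean of at least 10 CPM. The result of 1 of these genes is not reported here. No p-value was computed for a list.

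Libraries with the same number come from the same mouse within an organ by the labels. Deviations from the group means correlated at 0.117 to 0.336 for the 3 tracheal mice and at -0.0593 to 0.278 for the 18 pairs in the lung. Replicate libraries differed beyond counting noise (lowest chi-square per degree of freedom 3.67). The largest values were those of the first CD24hi library (35.5 and 42.4) and of the second alveolar library (41.1 and 39.2) against their replicates. The scripts were first tested on simulated data with known changes. Alternatives were scaling by RLE or by library size only, a CPM minimum of 1 or none, limma voom (limma 3.58.1), DESeq2 1.42.0, only the libraries compared, a replicate block for the mouse, a correction for gene length and leaving out each library.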

Additional observations from a re-analysis of the deposited data

How the results depend on the processing

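Of 960 log2 fold changes of the members recomputed under the alternatives, 891 kept their direction and their side of the threshold, 26 dropped below it, 33 passed it and 10 changed sign. None of those that changed sign had been called under the alternative. Library size alone turned *Cdkn1b* between BSCs and alveolar cells to 0.0065 and *Myc* between CD24hi and alveolar cells to 0.28, and a fit of only the libraries compared turned the latter to 0.047. The gene length correction turned *Rb1* in EpCAM-negative cells to -0.15. When single libraries were left out, *Myc* between CD24hi and alveolar cells lay between -0.15 and 0.038, *Cdk4* between CD24lo and alveolar cells between -0.17 and 0.046, *Cdkn2b* between these between -0.58 and 0.035 and *Rb1* in EpCAM-negative cells between -0.028 and 0.12. The causes were not tested. The first CD24lo library gave the -0.58 and the third the 0.035.

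The number of members called ranged over the left-out libraries from 4 to 6 between BSCs and non-basal cells (main value 6), from 8 to 9 between BSCs and alveolar cells (9), from 8 to 10 between CD24hi and CD24lo cells (8), from 7 to 8 between CD24hi and alveolar cells (7) and from 5 to 6 between CD24lo and alveolar cells (6), and was 9 throughout for EpCAM-negative cells. The count of 4 arose without the first BSC or without the third non-basal library. All genes called, of 17989 tested in the main fit, ranged alongside. In the same order they numbered 7395 to 8119 (main value 8668), 10851 to 11298 (11895) and 9153 to 10385 (9899). In the last 3 comparisons they numbered 10229 to 11269 (11131), 7487 to 8145 (8707) and 11256 to 12960 (12407). With a replicate block for the mouse, the counts of members were 6, 9, 9, 8, 6 and 9. Those of all genes were 8896, 11990, 10036, 11244, 8763 and 12482. The block added *Cdkn1b* between CD24hi and CD24lo cells and *Cdk6* between CD24hi and alveolar cells and changed no other call of a member. With library size alone, the share of all calls that were higher moved from 45.5 to 72.2%, from 46.1 to 64.5%, from 50.5 to 68.4% and from 49.2 to 65.4% in the first 4 comparisons. The level of a member moved by over 1 SD in 30 of 60 cases with library size alone and in 3 of 60 with RLE factors. Depth limits *Cdk6* most, with 15 to 21 reads in each alveolar library. Chosen after seeing the data, 8 gene lists and 7 of their genes were recomputed without the first CD24hi or the first CD24lo library. Of the genes, *Skp2* between CD24hi and CD24lo cells, which was not called, changed sign from -0.02 to 0.046 and 0.067.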
